A study of Mus musculus with 6 samples.

Results

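Homeostatic microglia identity genes are described here in CD11b-positive cells of the mouse spinal cord after electroconvulsive seizures (ECS). The set holds 9 genes chosen by symbol, Tmem119, Cx3cr1, Siglech, Olfml3, Sparc, Fcrls, Cst3, Selplg and Slc2a5, out of 47719 deposited rows. Each symbol stood on 1 row, so no choice between rows was needed. All 9 passed the filter on low values, a mean of at least 1 FPKM over all libraries, which left 11315 genes for testing. FPKM is the number of fragments per transcript length and per library size, and can be compared between genes because it is per length.

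ECS is a seizure induced by a brief electrical stimulus. In the ECS group, 3-month-old Biozzi ABH mice, an inbred strain, had 3 daily sessions and were killed 1 day after the last. The control group held mice of the same strain and age, which the sample descriptions call naive and the protocol calls sham treated, so that what the control mice received is not settled by the labels. No genetic modification is named for either group. There were 3 libraries a group, each made from 5 mice pooled, and n is the number of such pools. Spinal cords were dissociated, myelin was removed on Percoll, and cells were selected with beads against CD11b, an integrin that monocytes, neutrophils and border-associated macrophages carry as well as microglia.

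Microglia are the resident macrophages of the brain and spinal cord. In the undisturbed tissue they keep a characteristic set of transcripts, many of which depend on TGF-beta and CSF1 receptor signalling and are reduced in activated microglia or after the cells are removed from the tissue. The 9 genes are widely used to tell microglia from other myeloid cells or to follow that resting state. They encode secreted proteins (Cst3, Sparc, Olfml3), surface receptors and adhesion molecules (Cx3cr1, Siglech, Fcrls, Selplg, Tmem119) and a sugar transporter (Slc2a5). Several are not restricted to microglia: Sparc is also made by endothelial cells and fibroblasts, Cst3 by astrocytes, Selplg by neutrophils and T cells, Siglech by plasmacytoid dendritic cells and Cx3cr1 by a class of monocytes.

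The CD11b gene Itgam was at 747, 625 and 577 FPKM in ECS 1, 2 and 3, and at 689, 504 and 558 FPKM in control 1, 2 and 3. All 9 identity genes were above 0 in every library, so their transcripts were present in each pool. Transcripts of other cells were present too, those of red blood cells and neutrophils at the highest sums. The 7 erythroid markers, led by globin genes, summed to between 7208 and 77318 FPKM in ECS and between 2231 and 32810 FPKM in control, with 6 of 7 higher and 1 lower in ECS and none past the test. The summed FPKM of 13 neutrophil markers ranged from 11156 to 14490 in ECS and from 14546 to 26047 in control, led by the granule protein genes Ngp and Lcn2. The 7 neuron markers summed to at most 4.0 FPKM in ECS and 6.59 FPKM in control libraries, and 3 of them were listed at 0 in every library.

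The libraries were not equally alike. The FPKM sum ranged from 887144 to 926323 in ECS and from 729831 to 1009665 in control. Rows above 0 numbered between 11427 (ECS 1) and 14900 (ECS 2). ECS 1 stood apart, with 1580 of the tested genes at 0 where the other libraries had 448 to 806. ECS 3 and control 1 resembled each other more than any other pair across the tested genes (r = 0.913 on log2(FPKM + 1), across genes, which are not independent replicates). How many reads stand behind a value is unknown from FPKM.

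In GRCm38 with GENCODE M21 positions, all 9 genes are annotated as protein coding. Tmem119 (chromosome 5, 113793729 to 113800516, minus strand) and Selplg (chromosome 5, 113818536 to 113832644, minus strand) are direct neighbours among protein-coding genes, with 18019 bases between them. Olfml3 (chromosome 3, 103722222 to 103738001, minus strand) and Fcrls (chromosome 3, 87250758 to 87263738, minus strand) share a chromosome but are not neighbours. Cst3 lies on chromosome 2 (148871722 to 148875692, minus strand), Sparc on chromosome 11 (55394500 to 55423183, minus strand), Siglech on chromosome 7 (55768178 to 55778925, plus strand) and Slc2a5 on chromosome 4 (150119283 to 150144169, plus strand). Cx3cr1 lies on chromosome 9 (119901616 to 120069879, minus strand) and is the only member that overlaps other annotated genes, 9 in number. The most abundant of those in the deposited table was Csrnp1 on the same strand, at 59.9 to 88.3 FPKM, so part of the reads assigned to Cx3cr1 is uncertain. The deposited span of Cx3cr1 starts and ends at other bases than these (119894895 and 120068283), and that of Sparc ends at another base (55420080).

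Of the 9 genes, 7 have a promoter entry in the RefSeq-derived table (GRCm38.p6), where the 250 bases before the start were searched on both strands for 2 motifs of factors known from macrophages. GAGGAA, the core of the site of PU.1, the lineage factor of macrophages, was found before Cst3 and Fcrls, 2 of 7, against 23.3% of 32851 promoters. TGANTCA, the site of the AP-1 factors Fos and Jun, was found in 0 of 7, against 6.75% of all promoters. A match is a description of letters and does not show that a factor binds there. The stretches outside annotated exons are shown for the 2 genes with a GAGGAA match, in capitals, and for Olfml3 and Siglech, a pair whose levels varied alike over the libraries (r = 0.915) and which held neither motif. The Fcrls stretch lies before the RefSeq start but within the GENCODE span of Fcrls, which ends at 87263738. The stretches are chr3:87263600-87263677 (Fcrls, minus strand), chr2:148875693-148875762 (Cst3, minus strand), chr3:103738002-103738251 (Olfml3, minus strand) and chr7:55767934-55768177 (Siglech, plus strand), each written 5′ to 3′ in the direction of the gene.
Fcrls: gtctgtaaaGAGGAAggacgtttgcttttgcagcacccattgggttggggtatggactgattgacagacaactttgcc
Cst3: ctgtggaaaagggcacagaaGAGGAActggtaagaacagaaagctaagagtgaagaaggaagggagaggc
Olfml3: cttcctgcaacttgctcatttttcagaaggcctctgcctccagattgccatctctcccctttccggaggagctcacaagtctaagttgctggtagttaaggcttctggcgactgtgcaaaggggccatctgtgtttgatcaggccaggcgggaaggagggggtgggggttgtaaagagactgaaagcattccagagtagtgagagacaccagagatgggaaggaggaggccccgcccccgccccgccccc
Siglech: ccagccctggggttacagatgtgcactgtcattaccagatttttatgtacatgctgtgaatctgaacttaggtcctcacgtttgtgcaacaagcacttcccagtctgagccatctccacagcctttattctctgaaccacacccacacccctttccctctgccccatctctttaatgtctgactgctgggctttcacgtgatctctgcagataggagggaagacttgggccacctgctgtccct

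The levels of the 9 genes spanned more than 3 orders of magnitude and kept nearly the same order in every library. Cst3 was the most abundant, with a mean of 25583 FPKM over the 6 libraries, followed by Selplg (3185), Sparc (1733), Cx3cr1 (397), Tmem119 (304), Siglech (195), Olfml3 (153), Fcrls (135) and Slc2a5 (16.3). The higher gene of each neighbouring pair was higher in 6 of 6 libraries, except for Olfml3 and Fcrls. Olfml3 was above Fcrls in 4 of 6 libraries, namely all ECS libraries and control 1, with a ratio between 0.833 and 1.83. Siglech and Olfml3 were the next closest neighbours, with a ratio between 1.02 and 1.54. The ranges over the libraries did not overlap between Cst3 and Selplg, Selplg and Sparc, Sparc and Cx3cr1, or Fcrls and Slc2a5.

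**Figure D1:**
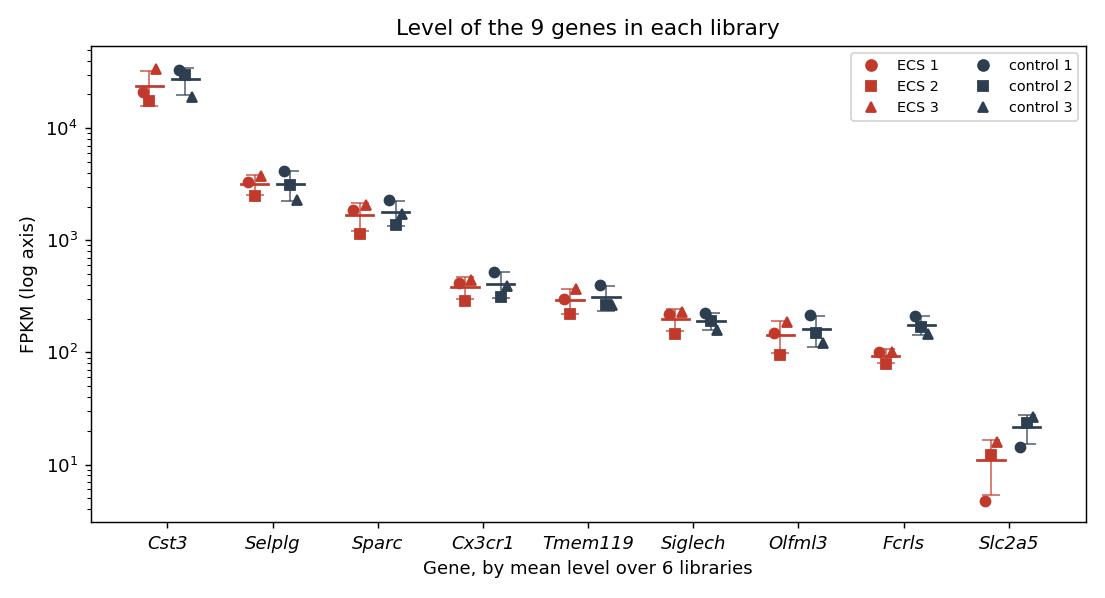
FPKM (log axis) of the 9 genes in each library, ordered by their mean over 6 libraries. Points are libraries, horizontal lines are group means and error bars are SD (n = 3 each). The ECS and control points of Fcrls do not overlap, with ECS at 78.2 to 102 and control at 146 to 213 FPKM.

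Ranks among all deposited rows, where 1 is the highest FPKM, showed where the genes stood within each library. Cst3, which encodes cystatin C, a secreted inhibitor of cysteine proteases, ranked 6, 6 and 3 in ECS 1, 2 and 3 and 3, 5 and 3 in control 1, 2 and 3. Selplg, which encodes the selectin ligand PSGL-1, ranked between 29 and 36 in ECS and between 23 and 37 in control. Sparc, which encodes a secreted matricellular glycoprotein, ranked between 47 and 78 in ECS and between 38 and 69 in control. Cst3, Selplg and Sparc were thus within the top 78 rows of every library.

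The ranks of the mid-abundance genes also overlapped between the groups. Cx3cr1 ranked between 218 and 309 in ECS and between 185 and 308 in control. Tmem119 ranked between 259 and 396 in ECS and between 235 and 363 in control. Siglech ranked between 416 and 578 in ECS and between 411 and 535 in control, and Olfml3 between 502 and 851 in ECS and between 422 and 692 in control.

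Fcrls was the only member whose ranks did not overlap between the groups. Ranks come from the same FPKM values as the levels, so this is not a separate observation. No share over other genes stands beside it. It ranked 938, 1012 and 843 in ECS 1, 2 and 3, and 435, 557 and 578 in control 1, 2 and 3. Slc2a5 ranked 6541, 4198 and 3527 in ECS 1, 2 and 3, and 3770, 2775 and 2545 in control 1, 2 and 3. ECS 3 therefore ranked Slc2a5 better than control 1 did. The rank of 6541 in ECS 1 stands beside the 11427 rows above 0 in that library, the lowest number of any library.

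**Figure D2:**
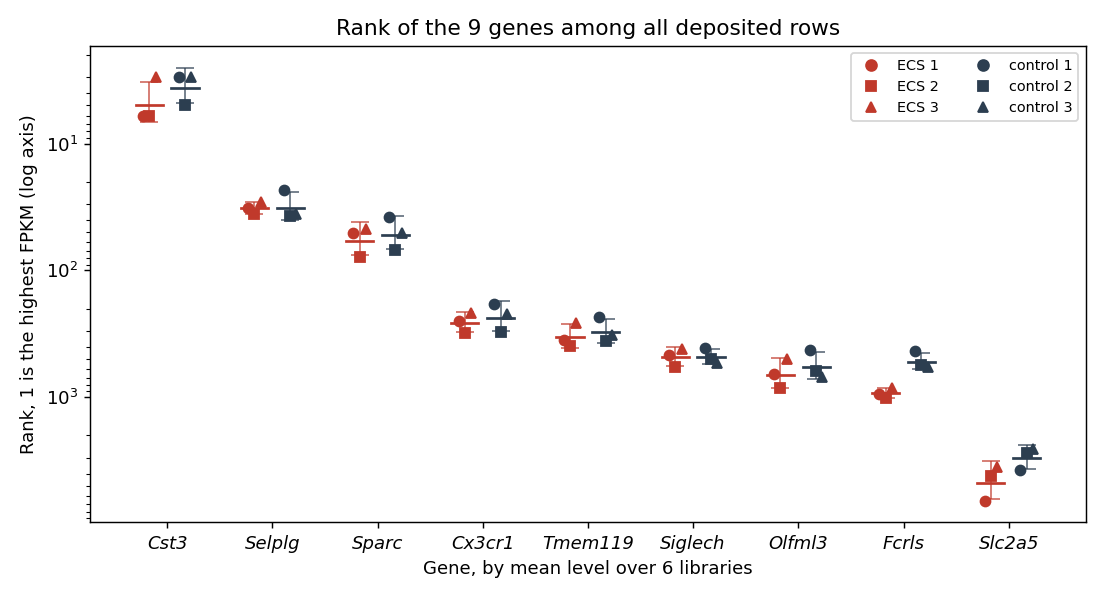
Rank of each of the 9 genes among all deposited rows (log axis, 1 at the top is the highest FPKM). Points are libraries, lines are group means and error bars are SD (n = 3 each). Fcrls ranks lie between 843 and 1012 in ECS and between 435 and 578 in control, and those of the other 8 genes overlap. No share over other genes stands beside this.

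The comparison of ECS with control asks whether the seizures were followed by a difference in the resting-state transcripts of these cells. None of the 9 genes passed it. The test was limma on log2(FPKM + 1) over all 11315 genes with Benjamini-Hochberg adjustment, and at a threshold of 0.05 it called 0 genes higher (0%) and 0 genes lower (0%). Before adjustment, 194 genes with p under 0.05 had higher values (1.71%) and 220 genes lower values (1.94%) in ECS. Of the 9 identity genes, 0 were among the 194 and 1, Fcrls, was among the 220. In bulk samples fewer microglia among the selected cells and less RNA per microglial cell cannot be told apart.

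Fcrls, which encodes an Fc receptor-like scavenger receptor of microglia, had the lowest unadjusted p of the 9. It was at 100.0, 78.2 and 102 FPKM in ECS 1, 2 and 3, and at 213, 170 and 146 FPKM in control 1, 2 and 3. Each ECS library was below each control library. The mean was 93.3 ± 13.1 FPKM in ECS and 176 ± 33.5 FPKM in control (SD, n = 3 each), a ratio of 0.529. The log2 fold change was -0.90 ± 0.25 (SE), with a 95% interval from -1.49 to -0.32, an unadjusted limma p of 0.00782 and a limma adjusted p of 1.00. It was between -1.03 and -0.76 with any 1 of the 6 libraries left out. Its sign could not change in those fits, because each ECS library was below each control library. Groups that do not overlap, with lower values in ECS, were found for 429 genes tested, or 3.79%, and for 1 of 9 identity genes. With higher values in ECS there were 419 such genes, or 3.70%, and 0 of 9 identity genes.

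The lower Fcrls level in ECS was also seen within each library relative to most of the other identity genes, where scaling between libraries plays no part. The ratio of Fcrls to Tmem119 was 0.337, 0.355 and 0.275 in ECS 1, 2 and 3, and 0.527, 0.636 and 0.552 in control 1, 2 and 3. The ratio of Fcrls to Siglech was 0.459, 0.531 and 0.442 in ECS, and 0.953, 0.883 and 0.920 in control. Ratios did not overlap between the groups against 7 of 8 other members, with ECS means between 0.520 and 0.615 times the control means. The exception was Slc2a5, against which the ratio was 20.9, 6.36 and 6.40 in ECS 1, 2 and 3, and 14.8, 7.19 and 5.49 in control 1, 2 and 3. These ratios share the same Fcrls values, and the 7 denominators varied alike over the libraries (median r = 0.873). They are not independent of the fold change or of each other, and are not 7 separate observations. Fcrls was chosen for these ratios after its values were seen, and no share over other genes stands beside them.

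**Figure D3:**
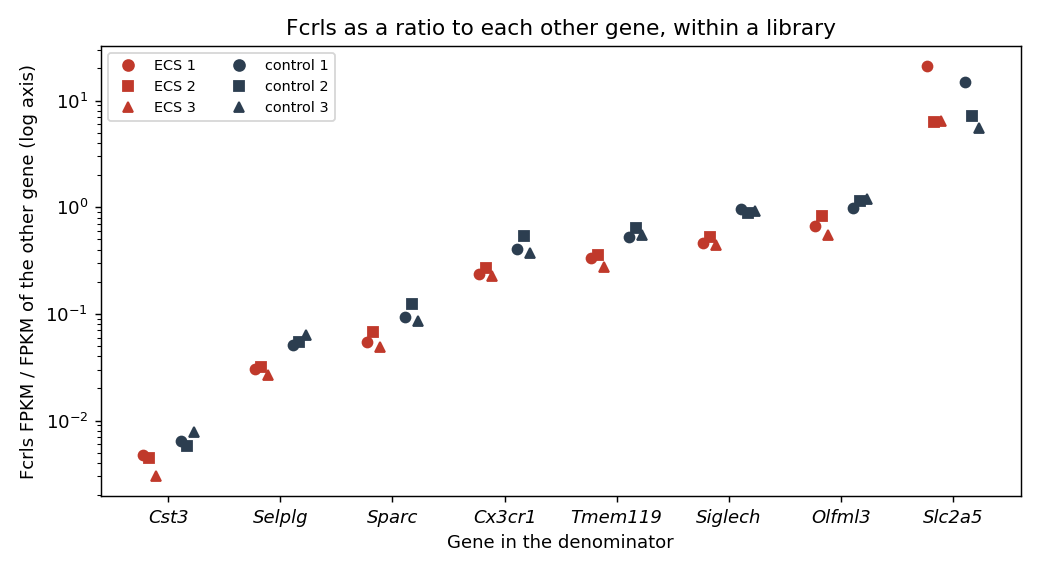
FPKM of Fcrls divided by that of each other gene within the same library (log axis), with ECS left of control and 1 point per library. The ECS points lie below the control points for 7 of 8 denominators and overlap them for Slc2a5.

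Slc2a5, which encodes a fructose transporter that in the central nervous system is found mainly in microglia, had the largest spread. It was at 4.78, 12.3 and 15.9 FPKM in ECS 1, 2 and 3, and at 14.3, 23.6 and 26.7 FPKM in control 1, 2 and 3. ECS 3 was above control 1, so the groups overlapped. The log2 fold change was -1.004 ± 0.48 (SE), with a 95% interval from -2.14 to 0.13 and a limma adjusted p of 1.00. Without ECS 1, which held the lowest value, it was -0.55, and without ECS 3 it was -1.32. The highest library was 5.59 times the lowest, where the other 8 genes had ratios between 1.56 and 2.72.

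Among the secreted proteins, Cst3 was at 21043, 17522 and 33392 FPKM in ECS 1, 2 and 3, and at 33186, 29565 and 18791 FPKM in control 1, 2 and 3. Its lowest library was ECS 2 and its highest was ECS 3, so both extremes lay in the ECS group. Sparc was at 1854, 1148 and 2052 FPKM in ECS 1, 2 and 3, and at 2267, 1373 and 1704 FPKM in control 1, 2 and 3. Olfml3, which encodes a secreted olfactomedin-like glycoprotein, was at 149, 95.4 and 186 FPKM in ECS 1, 2 and 3, and at 218, 148 and 122 FPKM in control 1, 2 and 3. The groups overlapped for all 3 genes. The log2 fold changes were -0.19 ± 0.33 for Cst3, -0.09 ± 0.30 for Sparc and -0.19 ± 0.34 for Olfml3 (SE).

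Among the receptors and adhesion molecules, Cx3cr1, the receptor of the neuronal chemokine fractalkine, was at 418, 289 and 443 FPKM in ECS 1, 2 and 3, and at 526, 314 and 391 FPKM in control 1, 2 and 3. Tmem119, a transmembrane protein gene used to tell microglia from infiltrating macrophages, was at 297, 221 and 369 FPKM in ECS 1, 2 and 3, and at 403, 267 and 265 FPKM in control 1, 2 and 3. Both genes were highest in control 1 and lowest in ECS 2, with overlapping groups. Their log2 fold changes were -0.09 ± 0.28 and -0.08 ± 0.29 (SE).

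Siglech, a sialic acid-binding lectin gene, was at 218, 147 and 230 FPKM in ECS 1, 2 and 3, and at 223, 192 and 159 FPKM in control 1, 2 and 3. Selplg was at 3284, 2466 and 3771 FPKM in ECS 1, 2 and 3, and at 4167, 3118 and 2305 FPKM in control 1, 2 and 3. The groups overlapped for both, and their log2 fold changes, 0.04 ± 0.27 and 0.01 ± 0.28 (SE), were the only ones above 0 among the 9 genes. Both were below 0 with libraries rescaled to the same total (-0.05 for Siglech and -0.08 for Selplg).

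The intervals give the size of difference that these libraries leave possible. For the 7 genes other than Fcrls and Slc2a5, the 95% interval of the fold on the FPKM + 1 scale ran from between 0.505 and 0.666 to between 1.48 and 1.59. Differences of a size inside those intervals could not be told from none with 3 libraries a group, and the missing calls do not show that the groups were alike. For Fcrls the interval ran from 0.357 to 0.801. The intervals are those of single genes and are not adjusted for the number of genes tested. In the same fit 414 of 11315 genes had an unadjusted limma p under 0.05, and thus an interval that leaves out no difference.

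**Figure D4:**
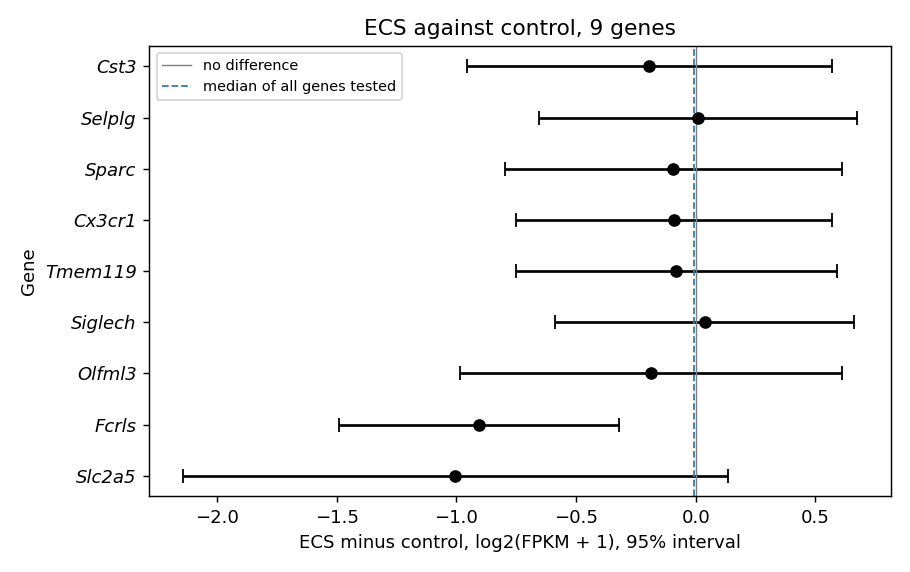
Difference between ECS and control on log2(FPKM + 1) for each gene, with its 95% interval from limma (n = 3 each), beside 0 and the median of all genes tested (-0.01). The interval of Fcrls, from -1.49 to -0.32, is the only one that leaves out 0.

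Over the set, 7 of 9 genes had a log2 fold change below 0 and 2 of 9 one above 0. Counts of higher and lower values in ECS, here and in the lists, go by that sign. For Selplg, with a log2 fold change of 0.01, the mean FPKM was on the other side, at 3174 in ECS and 3197 in control. The median log2 fold change was -0.09, beside a median of -0.01 over all genes tested, of which 50.8% had lower values. The count rested on single libraries: without ECS 2, 2 of 9 genes had lower values in ECS (median 0.10), and without control 1, 3 of 9 (median 0.10). ECS 2 held the lowest value for 7 of 9 genes and control 1 the highest for 6 of 9. Their mean log2(FPKM + 1) over the 9 genes was 8.67, 8.37 and 9.04 in ECS 1, 2 and 3, and 9.24, 8.90 and 8.78 in control 1, 2 and 3. ECS 3 was thus above control 2 and control 3.

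The variation of the genes across libraries cut across the groups. For the 7 genes other than Fcrls and Slc2a5, a grouping made after their values were seen, the 21 pairwise Pearson correlations of log2(FPKM + 1) over the 6 libraries were between 0.548 (Cx3cr1 with Cst3) and 0.987 (Cx3cr1 with Sparc), with a median of 0.873. The neighbouring genes Tmem119 and Selplg had r = 0.895. Fcrls had r between 0.308 and 0.597 with those 7 genes, and Slc2a5 between -0.343 and 0.193. Fcrls and Slc2a5 had r = 0.478 with each other. These values describe 6 libraries that share scaling and the mix of selected cells across all genes, and carry no test.

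**Figure D5:**
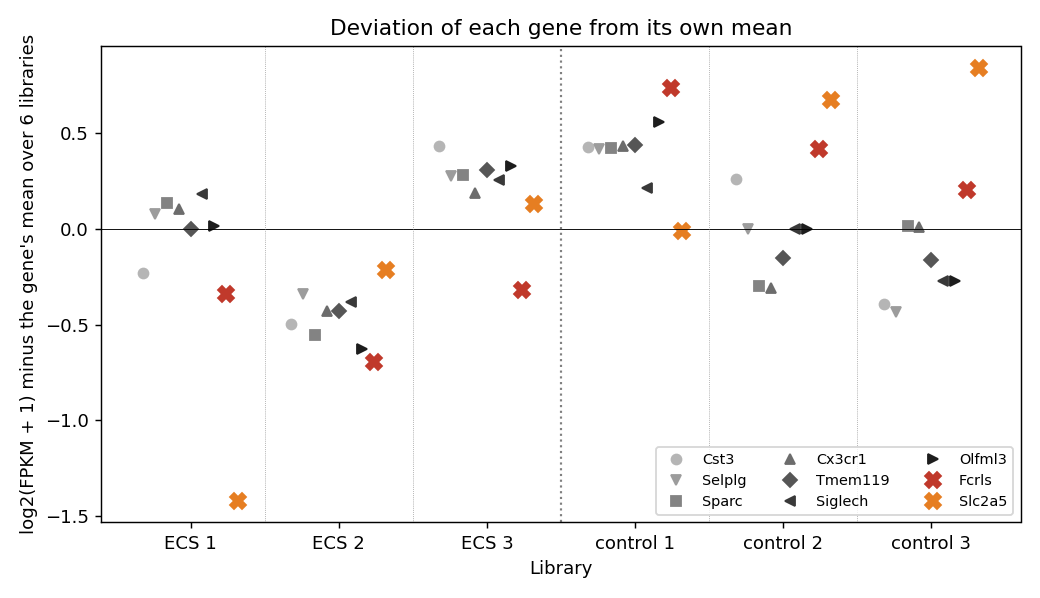
Deviation of log2(FPKM + 1) from the gene's own mean over 6 libraries, 1 column of points per library, with Fcrls and Slc2a5 as large crosses. In ECS 3 and control 1 the 7 other genes lie above 0, and in ECS 2 below 0, while Fcrls is below 0 in each ECS library and above 0 in each control library.

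Endothelial, oligodendrocyte, astrocyte, fibroblast and globin transcripts were lowest in the libraries with the highest levels of the identity genes. Other lists did not all follow this. ECS 3 and control 1 had the highest mean level of the 9 genes. Their endothelial and mural markers summed to 50.8 FPKM in ECS 3 and 50.7 in control 1, against 175 and 365 in ECS 1 and 2 and 486 and 260 in control 2 and 3. Oligodendrocyte markers summed to 67.4 FPKM in ECS 3 and 73.5 in control 1, against 207 and 239 in ECS 1 and 2 and 183 and 191 in control 2 and 3. Astrocyte markers summed to 7.55 FPKM in ECS 3 and 14.4 in control 1, against 40.0 to 77.5 in the other libraries. Fibroblast markers summed to 7.51 FPKM in ECS 3 and 11.2 in control 1, against 16.2 to 51.8 in the other libraries. Globin genes made up 0.809% of the FPKM sum in ECS 3 and 0.270% in control 1, against 3.83% and 8.48% in ECS 1 and 2 and 3.17% and 2.33% in control 2 and 3. The globin share of ECS 3 and control 1 was mostly Hba-a1, which was listed at 0 in the other libraries. Neutrophil markers (14490 FPKM) and T and NK cell markers (186 FPKM), by contrast, had their highest sum among the ECS libraries in ECS 3. Among the control libraries, both lists had their lowest sum in control 1 (14546 and 113 FPKM). Nkg7 alone was at 175 FPKM in ECS 3, where 7 of the 12 T and NK cell markers were listed at 0. Sparc, which endothelial cells also express, was at 1854, 1148 and 2052 FPKM in ECS 1, 2 and 3. In control 1, 2 and 3 Sparc was at 2267, 1373 and 1704 FPKM. The part of the other cells in the levels of the 9 genes was not tested.

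Markers of other myeloid cells, which CD11b beads also select, differed in level between libraries. The 12 border-associated macrophage markers summed to 1655, 1380 and 487 FPKM in ECS 1, 2 and 3. In control 1, 2 and 3 they summed to 411, 439 and 428 FPKM. Of the 12 tested members, 8 had higher and 4 lower values in ECS, and none passed the test. Groups did not overlap for 2 of 12, both with higher values in ECS, beside 3.70% of all genes tested. The most abundant of these markers were the chemokine genes Ccl24 and Pf4. Ccl24 was at 1101, 655 and 199 FPKM in ECS 1, 2 and 3, and at 187, 239 and 213 FPKM in control. Pf4 was at 117, 427 and 6.87 FPKM in ECS 1, 2 and 3, and at 9.86, 16.9 and 75.7 FPKM in control. Fcrls was at 100.0, 78.2 and 102 FPKM in ECS 1, 2 and 3. In control 1, 2 and 3 Fcrls was at 213, 170 and 146 FPKM. The 10 monocyte markers, led by Fn1 and Chil3, summed to 6489, 3706 and 2594 FPKM in ECS 1, 2 and 3. In control 1, 2 and 3 they summed to 1819, 3261 and 4221 FPKM. Fn1 alone was at 5184, 2482 and 868 FPKM in ECS 1, 2 and 3, and at 427, 1196 and 1879.5 FPKM in control. Of the 10 markers, 5 had higher and 5 lower values in ECS (median log2 fold change 0.007), with none past the test. Neutrophil markers had lower values in ECS for 13 of 13 tested members (median log2 fold change -0.51), none of which passed. No marker of these 3 cell types was listed at 0 in every library. The part of these cells in the Fcrls difference was not tested.

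The remaining marker lists were low or overlapped between the groups. T and NK cell markers, led by Nkg7 and Prf1, summed to between 73.0 and 186 FPKM in ECS and between 113 and 303 FPKM in control, with 1 of 12 listed at 0 in every library. Astrocyte markers, led by Atp1b2 and Aldoc, summed to between 7.55 and 77.5 FPKM in ECS and between 14.4 and 53.2 FPKM in control. Fibroblast markers, led by Dcn and Col1a2, summed to between 7.51 and 51.8 FPKM in ECS and between 11.2 and 26.1 FPKM in control.

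A further list held 44 genes known as microglial signature genes, all tested. Of them 16 had higher and 28 lower values in ECS, none passed the test, and the median log2 fold change was -0.08. P2ry12, a purinergic receptor gene of resting microglia, was at 808, 540 and 1073 FPKM in ECS 1, 2 and 3, and at 1084, 831 and 821 FPKM in control 1, 2 and 3. Csf1r, the receptor gene on which microglial survival depends, was at 1452, 1081 and 1700 FPKM in ECS, and at 1920, 1305 and 1323 FPKM in control. Both genes were lowest in ECS 2 and highest in control 1, as were Tmem119 and Cx3cr1. P2ry12 and Csf1r overlap Med12l and Hmgxb3 on the opposite strand, Ltc4s overlaps Gm26542 in the same way, and Itgam overlaps Gm49368 on its own strand, so part of their reads is uncertain.

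In that list Ltc4s, the leukotriene C4 synthase gene, had the largest positive log2 fold change, 0.62 ± 0.24 (SE), with an unadjusted limma p of 0.0348 and a limma adjusted p of 1.00. It was at 583, 543 and 526 FPKM in ECS 1, 2 and 3, and at 382, 440 and 271 FPKM in control 1, 2 and 3, without overlap. Of the 44 genes, 1 had groups without overlap and higher values in ECS (Ltc4s), beside 3.70% of all genes tested. With lower values in ECS it was 1 of 44 (Gas6), beside 3.79%. Ltc4s was the 1 gene of 44 with an unadjusted limma p under 0.05, beside 1.71% higher and 1.94% lower of all genes tested. Crybb1 and Ptafr followed with 0.45 ± 0.39 and 0.41 ± 0.32 (SE). The lowest was Aif1, which encodes the microglial protein Iba1, at -0.94 ± 0.97 (SE). It was at 0.199, 10.9 and 11.5 FPKM in ECS 1, 2 and 3, and at 12.95, 4.31 and 16.0 FPKM in control 1, 2 and 3. Only ECS 1 lay outside the range of the control libraries. Adora3 and Gas6 had log2 fold changes of -0.70 ± 0.44 and -0.59 ± 0.33 (SE).

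Genes known to respond to cell isolation were abundant in both groups. The 20 immediate early and dissociation genes, Fos and Jun among them, had a mean log2(FPKM + 1) of 8.36, 8.39 and 8.68 in ECS 1, 2 and 3, and of 8.79, 8.27 and 8.28 in control 1, 2 and 3. The 2 highest libraries, control 1 and ECS 3, were also the highest for the 9 identity genes. Of the 20 genes, 15 had higher and 5 lower values in ECS (median log2 fold change 0.12), with none past the test. The 19 genes of activated microglia had 8 higher and 11 lower values in ECS (median log2 fold change -0.06), with none past the test.

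The genes whose pattern over the 6 libraries was most like the mean of the 9 members were sought among 2995 genes that averaged at least 20 FPKM and had no value listed at 0. They were Rtfdc1 (r = 0.986), the lysosomal sulphatase gene Arsb (r = 0.982), the homeobox gene Hhex (r = 0.980), the kinase gene Rps6ka1 (r = 0.979) and the lipid-sensing receptor gene Trem2 (r = 0.972). With 6 libraries such values are frequent: 48 of the 2995 genes had r over 0.9. By the same rule Tmem119 was most like Csf1r (r = 0.996), Cx3cr1 and Sparc both like Slc29a3 (r = 0.990 and 0.998), Siglech like Rnase4 (r = 0.976), Olfml3 like Mapk14 (r = 0.987), Cst3 like Sirt2 (r = 0.999) and Selplg like Apbb1ip (r = 0.997). Fcrls was most like Dync1i2 (r = 0.985), and 7 genes had r over 0.9 with it, against 39 to 60 for the other members. Slc2a5 was most like Rsl1d1 (r = 0.971).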

How the data were processed

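RNA was sequenced from CD11b-selected spinal cord cells. The authors deposited FPKM, in a column for each library. The submitters' processing notes name TopHat2, Cufflinks, Cuffnorm and GRCm38. Tool versions, the annotation, strand use and how libraries were scaled to each other are not stated there. Cufflinks estimates how reads divide between overlapping genes. Depth is unknown: no step size put more than 26.4% of low values within 0.1 of whole reads.

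Libraries were grouped by title. FPKM was taken as log2(FPKM + 1), which understates changes of low genes, for genes that averaged 1 FPKM or more. ECS was compared with control by limma 3.58.1 in R 4.3.3 (variance trend, two-sided). P-values were adjusted by Benjamini-Hochberg over every gene tested, with a threshold of 0.05, and measure the spread between pools. The fit was checked on simulated data. The 9 genes, the lists and the rule for named genes were chosen with earlier results of these data known. The rule takes the 9 genes, Itgam, Csf1r, P2ry12, a gene not reported here, the 3 highest and 3 lowest further signature genes by log2 fold change, the genes most alike by Pearson r, and the 2 most abundant markers of each other cell type. Csrnp1 and the pairs of genes compared within the set were named after their values were seen. Alternatives covered pseudocounts (0.1, 0.5), filters (none, 5 FPKM), 5 rescalings, 3 variance or weighting models, a replicate block and each library left out. Figures were drawn with matplotlib 3.10.9.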

Additional observations from a re-analysis of the deposited data

How the results depend on the processing

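Under 19 alternatives, 13 with all libraries and 6 with 1 library left out, 0 genes were higher and 0 lower in ECS by limma, and the number with an unadjusted p under 0.05 was 260 to 557. In these fits 0 of 171 member values passed the threshold (lowest limma adjusted p 0.874). Fcrls kept its direction under all of them. Its log2 fold changes were between -1.06 and -0.90 with all libraries and between -1.03 and -0.76 with 1 left out. Its unadjusted limma p was between 0.00454 and 0.0316. With 1 library left out the direction of Fcrls could not change, because its groups did not overlap. Slc2a5 kept its direction too, from -1.14 to -0.68 with all libraries and from -1.32 to -0.55 with 1 left out. Siglech and Selplg went below 0 with libraries rescaled to the same total (-0.0529 and -0.0808), to the total without globin genes (-0.0160 and -0.0436), to the same Itgam level (-0.12 and -0.15), with quantile normalization (-0.0075 and -0.0190) and with array weights (-0.0020 and -0.0154), and Selplg with median-ratio rescaling (-0.00087). The Itgam rescaling moved the median of all genes to -0.14 from -0.01. With 1 library left out, the log2 fold change was between -0.26 and 0.12 for Tmem119, -0.27 and 0.10 for Cx3cr1, -0.0893 and 0.24 for Siglech, -0.40 and 0.0772 for Olfml3, -0.27 and 0.16 for Sparc, -0.46 and 0.0049 for Cst3 and -0.21 and 0.22 for Selplg. Tmem119, Cx3cr1, Olfml3 and Sparc were above 0 without ECS 2 and without control 1, Cst3 was above 0 without ECS 2, and Siglech and Selplg were below 0 without ECS 1, ECS 3 or control 3. Ranks among the genes tested had the same medians as among all rows. Libraries with the same replicate number did not deviate together (correlations of -0.04, 0.10 and -0.11 for numbers 1, 2 and 3). The replicate block called 0 genes in either direction, and 2 of 9 members had an unadjusted p under 0.05, against 1 without it. FPKM keeps no depth, so counting error could not be separated from the spread between pools.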
